A study of Mus musculus with 19 samples.

Results

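Interferon response genes were followed in mouse liver as a list of 40 genes, taken by symbol from the 24421 gene symbols of the count table. All 40 were in the table and all 40 passed the filter on low counts. The livers came from mice on a purified diet that had been injected for 3 weeks, 2 times a week, with an antisense oligonucleotide (ASO) against Plin5, the gene of the lipid droplet protein perilipin 5, or with a control ASO. Livers were fasted (a night without food) or re-fed (such a fast followed by 4 h of food). The 19 libraries form 4 groups: fasted with control ASO (n = 4, numbered 1, 3, 4 and 5), fasted with PLIN5 ASO (n = 5), re-fed with control ASO (n = 5) and re-fed with PLIN5 ASO (n = 5). All mice, controls included, had received an oligonucleotide and had been fasted, and no uninjected or freely fed group was analysed here. Strain, sex and age are not given in the labels, nor whether replicates are separate animals, so the p-values measure the spread between these libraries. Only 1 ASO against Plin5 is named, so effects of lower Plin5 and other effects of that oligonucleotide cannot be told apart.

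Interferons are secreted proteins that warn cells of infection. Type I interferons (alpha and beta) act through the receptor Ifnar1/Ifnar2 and a complex that includes Stat2 and Irf9 and binds DNA at the interferon-stimulated response element (ISRE). Interferon gamma acts through Ifngr1/Ifngr2, and its signal reaches DNA at gamma-activated sites (GAS). The genes switched on in this way sense viral nucleic acid, block viral replication, attack the vacuoles of intracellular parasites and prepare peptides for T cells. Many of them are also transcribed at a low level without infection. In liver, hepatocytes and resident macrophages, the Kupffer cells, both carry these receptors.

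Total counts ranged from 24.9 to 66.9 in units of 1e6 per library, and the 40 genes held 0.107% to 0.16% of them. Plin5 stood at 3.91 to 13.1 CPM (counts per 1e6 counts) in the 10 PLIN5 ASO libraries and at 27.3 to 51.8 CPM in the 9 control ASO libraries. No library of either ASO reached into the range of the other. In 4 libraries, levels stood apart in circadian clock genes: Arntl, a core clock gene, reached 14.6 and 15.0 CPM in libraries 3 and 5 of the fasted PLIN5 ASO group. In libraries 3 and 5 of the re-fed control ASO group it reached 23.8 and 45.0 CPM, while the remaining 15 spanned 0.566 to 4.87 CPM. These are called the clock-shifted libraries below, and the calls that are lost without them are given with the results. Fasted control ASO 3 and 4 were closer to each other than any other pair of a group (chi-square per degree of freedom 3.24, against 18.9 for the next pair). They differed by more than sampling noise, which does not show that they came from separate animals. They were kept as 2 libraries, and the calls lost with them as 1 sample are given with the results. The hepatocyte markers Alb, Apoa1, Ttr, Tat, Cps1 and Ahsg together gave 87379 to 150867 CPM in each library.

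The promoters of 33 of the 40 genes were in the RefSeq promoter set (build GRCm38.p6). Dhx58, Zbp1, Usp18, Parp14, Rtp4, Gbp6 and Iigp1 were not. Windows reached from 250 bases before the transcription start to 50 bases after it and were searched on both strands for an ISRE core (GAAA, any 2 bases, GAAA) and the GAS core TTCNNNGAA. An ISRE core was present in 18 of 33 (54.5%), against 3.99% of 27025 genes with a window, and a GAS core in 10 of 33 (30.3%), against 9.55%. Both stood in the same window for Eif2ak2, Oas1a, Bst2, Gbp7, Igtp and Irgm2 (18.2%, against 0.54%). The windows of Tap1, Psmb9, Irf7, Irf9, Xaf1, Herc6, Oasl1, Oasl2, Ifi44, Ifi47 and Cxcl9 held neither string. A match is a string of letters and does not show that a factor binds there.

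Promoter stretches of 6 genes that changed with re-feeding are printed to show the matches: the 5 genes that fell and whose windows held a motif, and Stat2, which alone rose. Tap1, Irf9 and Xaf1, which also fell, are not printed, since their windows held neither. Each is read on the strand of its gene, 5′ to 3′. The letters of matches to the ISRE and GAS cores, in either orientation, are in capitals. The stretches are chr19:34640739-34640888 (plus strand) for Ifit1, chr4:156200819-156200968 (minus strand) for Isg15, chr12:26456453-26456602 (minus strand) for Rsad2, chr11:58199406-58199555 (plus strand) for Igtp, chr11:58214827-58214976 (plus strand) for Irgm2 and chr10:128270248-128270397 (plus strand) for Stat2. The first 5 end at the base before the transcription start of RefSeq, and that of Stat2 lies farther upstream. Gene positions given with the results are those of GENCODE, whose outermost start differs from the RefSeq start for Ifit1, Irgm2 and Stat2. The printed stretch of Irgm2 lies inside its GENCODE model, and that of Ifit1 overlaps the beginning of its own.
Ifit1: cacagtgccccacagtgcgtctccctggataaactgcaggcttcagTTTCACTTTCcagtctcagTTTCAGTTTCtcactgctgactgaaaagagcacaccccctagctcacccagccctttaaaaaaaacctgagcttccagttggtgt
Isg15: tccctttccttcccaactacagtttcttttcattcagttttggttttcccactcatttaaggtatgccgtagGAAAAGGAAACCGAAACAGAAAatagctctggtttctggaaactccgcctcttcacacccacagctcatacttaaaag
Rsad2: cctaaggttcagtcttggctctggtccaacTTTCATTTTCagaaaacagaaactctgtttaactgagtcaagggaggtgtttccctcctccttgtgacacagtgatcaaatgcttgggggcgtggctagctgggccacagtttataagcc
Igtp: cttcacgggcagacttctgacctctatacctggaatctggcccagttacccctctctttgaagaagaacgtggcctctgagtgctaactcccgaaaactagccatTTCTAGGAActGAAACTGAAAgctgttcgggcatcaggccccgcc
Irgm2: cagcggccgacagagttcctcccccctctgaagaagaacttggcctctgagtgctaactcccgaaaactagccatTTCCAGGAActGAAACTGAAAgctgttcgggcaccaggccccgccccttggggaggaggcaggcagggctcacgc
Stat2: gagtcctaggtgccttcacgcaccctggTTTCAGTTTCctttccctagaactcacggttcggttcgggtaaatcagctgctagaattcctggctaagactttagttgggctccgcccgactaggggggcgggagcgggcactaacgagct

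In Ifit1 a pair of ISRE cores lay at -104 to -95 and -85 to -76 from the start. In Isg15 3 overlapping cores filled the stretch from -78 to -57. Igtp and Irgm2 each held a GAS core followed, 2 bases on, by an ISRE core, and 39 of the 40 bases around the 2 motifs were identical between them. Igtp and Irgm2 are neighbours on chromosome 11 and related in sequence. Their annotated exons share 162 bases on the same strand, so reads there cannot be split between them with certainty, and the likeness of their values is not independent.

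Compared per length, in FPKM (fragments per kilobase per 1e6 mapped fragments, as deposited), the 40 genes spanned a wide range. Bst2, which encodes tetherin, the membrane protein that holds budding virus at the cell surface, led with a mean of 222 FPKM over the 19 libraries, above 98.4% of all gene symbols. Iigp1, a GTPase directed at parasite vacuoles, followed with 117 FPKM, then the transcription factor gene Irf7 with 34.6 FPKM and the immunoproteasome subunit gene Psmb8 with 27.1 FPKM. Ifit2 (0.677 FPKM) and Gbp6 (0.623 FPKM) came last, and none of the 40 was listed at 0 in any library. The spread between libraries of a group, as a coefficient of variation of CPM averaged over the 4 groups, ran from 8.89% for Iigp1 and 10.3% for Ifi35 to 30.9% for Oas1a and 32.6% for Ifit2. Iigp1 and Ifi35 are therefore known with less error than Oas1a and Ifit2.

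**Figure D1:**
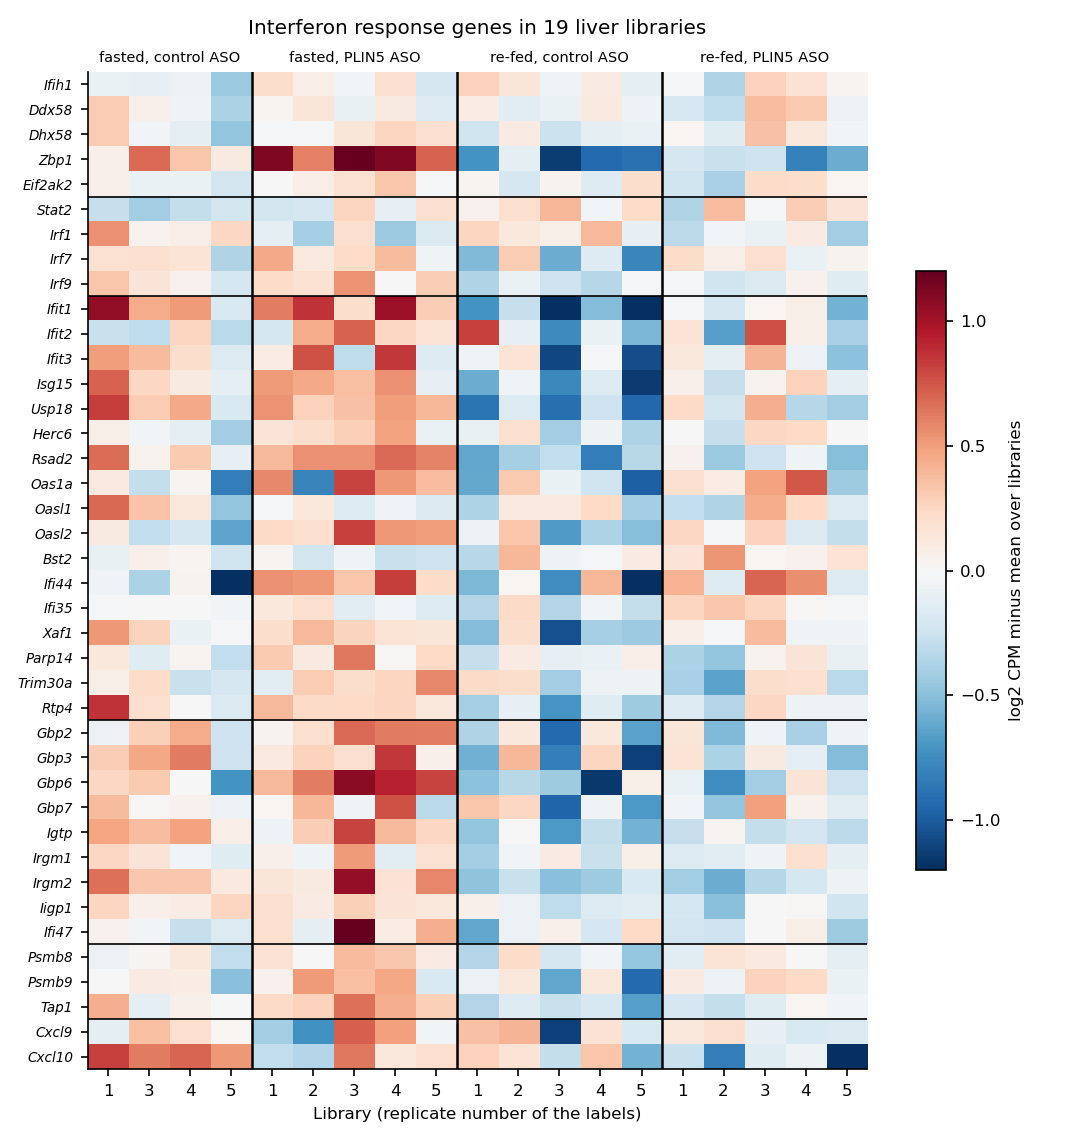
Each row is a gene, ordered by role, and each column a library, ordered by group; colour is log2 CPM minus the gene's mean over the 19 libraries (red higher, blue lower). Zbp1, Ifit1, Rsad2, Igtp and Irgm2 are mostly red in the fasted groups and blue in the re-fed ones, while the RNA sensors Ifih1, Ddx58 and Dhx58 show no such split.

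Re-fed against fasted liver asks how 4 h of food after the fast moved these genes, under each ASO. Genes that fell outnumbered those that rose under both. With control ASO, 10 of the 40 fell and 1 rose (27.5%), against 13.2% of the 13293 genes tested that changed, 6.82% that fell and 6.42% that rose (edgeR quasi-likelihood test, adjusted p under 0.05). With PLIN5 ASO, 9 fell and 0 rose (22.5%), against 8.64% of all genes that changed, 4.14% that fell and 4.50% that rose. The median log2 fold change of the 40 was -0.20 with control ASO and -0.27 with PLIN5 ASO, against 0.03 and 0.00 over all genes. It was below 0 in 30 and 34 of the 40. The 2 comparisons share no library, and Zbp1, Ifit1, Rsad2, Igtp, Irgm2 and Tap1 fell in both: 60.0% of the 10 falls and 66.7% of the 9 falls, against 29.6% and 48.7% for all genes that fell. In 8 genes with control ASO and 7 with PLIN5 ASO every re-fed library lay below every fasted one, against 9.12% and 3.63% of all genes. In 1 gene with control ASO and 0 with PLIN5 ASO every re-fed library lay above, against 7.15% and 3.94%. In a bulk sample less RNA per cell and fewer cells of a type cannot be told apart.

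**Figure D2:**
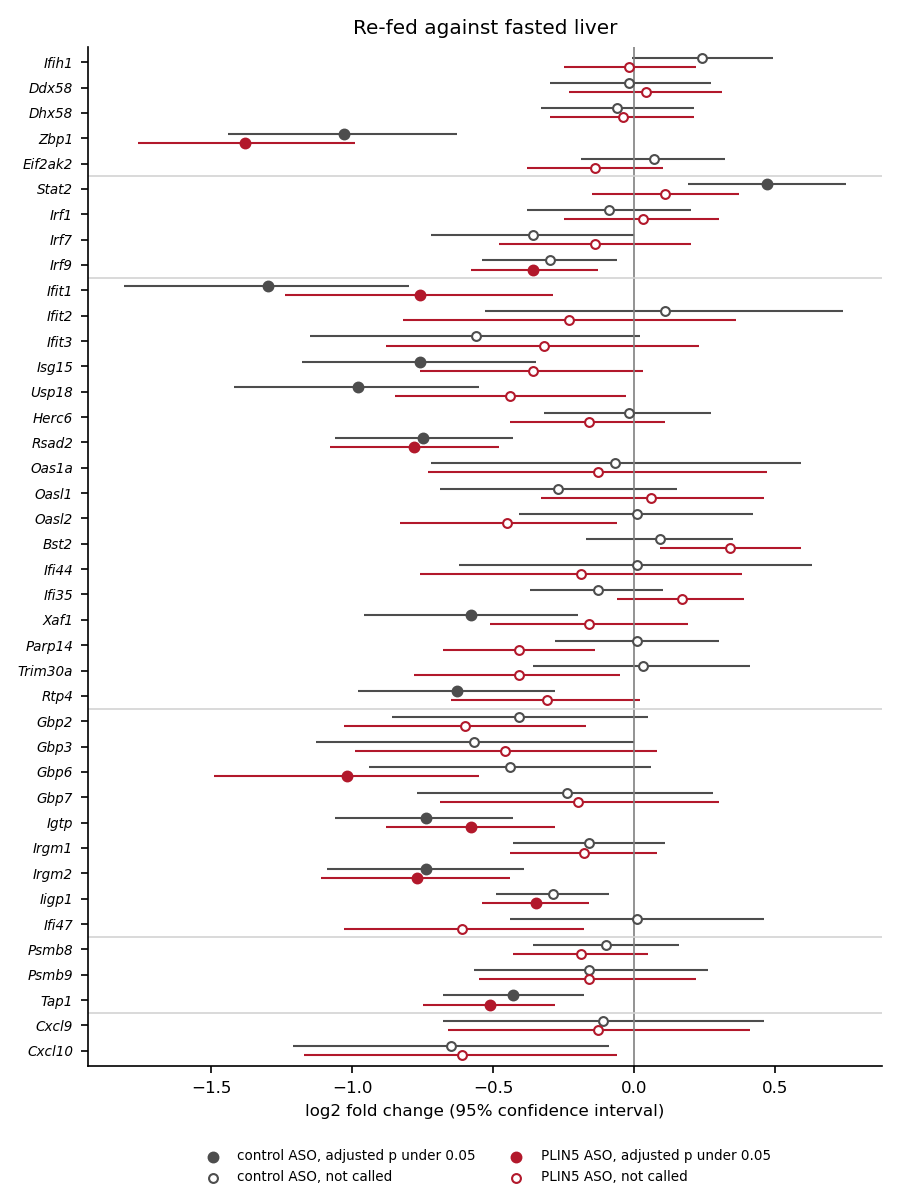
Points are log2 fold changes of re-fed against fasted liver for the 40 genes, grouped by role, with control ASO (grey) and PLIN5 ASO (red); lines are 95% confidence intervals and filled points have an adjusted p under 0.05. The largest falls are those of Zbp1 and Ifit1, Stat2 with control ASO is the single filled point above 0, and the chemokines and most RNA sensors are open.

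Among the 5 sensors of foreign RNA, Zbp1 fell and the other 4 did not pass. Zbp1 (chromosome 2, 173206612 to 173218923, minus strand) encodes a protein that binds nucleic acid in the left-handed Z form and can start cell death. In order of library number, Zbp1 held 10.2, 15.7, 12.3 and 10.5 CPM in fasted and 5.95, 9.07, 4.44, 5.13 and 5.24 CPM in re-fed liver with control ASO. With PLIN5 ASO it held 21.2, 14.9, 22.4, 21.1 and 16 CPM in fasted and 8.50, 8.13, 8.21, 5.57 and 6.46 CPM in re-fed liver. No re-fed library reached the lowest fasted one under either ASO. The fall was 2.05-fold with control ASO (log2 fold change -1.03, SE 0.19, adjusted p = 0.00190) and 2.60-fold with PLIN5 ASO (-1.38, SE 0.18, adjusted p = 1.29e-04). Ifih1 encodes MDA5, a sensor of long double-stranded RNA. It held 33.3, 32.7, 33.5 and 25.7 CPM in fasted and 42.4, 38.7, 33.8, 37.5 and 32.5 CPM in re-fed control ASO liver, and the groups overlapped (log2 fold change 0.24, SE 0.12, adjusted p = 0.194). With PLIN5 ASO Ifih1 held 40.5, 37.0, 34.3, 40 and 30.6 CPM in fasted and 34.8, 27.3, 42.6, 39.7 and 35.8 CPM in re-fed liver (-0.02, SE 0.11, adjusted p = 0.952). Ddx58 (RIG-I), Dhx58 (LGP2) and Eif2ak2 (the RNA-activated kinase PKR) had log2 fold changes between -0.14 and 0.07 in the 2 comparisons, with 95% confidence intervals within -0.38 and 0.32.

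Among the 4 transcription factors, Stat2 rose in 1 of the comparisons and Irf9 fell in the other. Stat2 (chromosome 10, 128270559 to 128292849, plus strand) held 52.8, 48.0, 52.5 and 54.9 CPM in fasted and 66.5, 72.9, 84.6, 62.4 and 74.5 CPM in re-fed liver with control ASO, with no overlap. It rose 1.39-fold (log2 fold change 0.47, SE 0.13, adjusted p = 0.0250). With PLIN5 ASO Stat2 held 54.9, 55.7, 76.6, 59.9 and 73.1 CPM in fasted and 49.8, 82.8, 63.0, 78.5 and 71.4 CPM in re-fed liver, groups that overlapped (0.11, SE 0.12, adjusted p = 0.643). The rise with control ASO missed the threshold in 7 of 21 other settings: without fasted control ASO 1, 3 or 4, without re-fed control ASO 3, with fasted control ASO 3 and 4 as 1 sample, without the clock-shifted libraries (0.37, adjusted p = 0.0860, the highest of the 21; the lowest was 0.00905) and with the trend over transcript length taken out (0.38, adjusted p = 0.0746). Irf9, the DNA-binding part of the type I interferon complex, held 54.3, 48.1, 44.6 and 37.2 CPM in fasted and 33.5, 40.7, 36.3, 34.0 and 42.7 CPM in re-fed control ASO liver, which overlapped (-0.30, SE 0.11, adjusted p = 0.0841). With PLIN5 ASO Irf9 held 50.1, 48.9, 62.7, 43.0 and 52.9 CPM in fasted and 42.8, 36.6, 38.2, 44.7 and 38.9 CPM in re-fed liver. It fell 1.28-fold there (-0.36, SE 0.11, adjusted p = 0.0437), with 1 re-fed library, PLIN5 ASO 4, above the lowest fasted one. That call was lost in 14 of 21 other settings, among them those without fasted PLIN5 ASO 1, 2, 3 or 5, without re-fed PLIN5 ASO 2, 3 or 5 and without the clock-shifted libraries (adjusted p 0.0195 to 0.215 over all 21). Irf1 and Irf7, which amplify the response, did not pass with log2 fold changes of -0.09 and -0.36 with control ASO and 0.03 and -0.14 with PLIN5 ASO.

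Of the 17 antiviral effectors and ISG15 system genes, 6 fell with control ASO and 2 of those 6, Ifit1 and Rsad2, fell with PLIN5 ASO too. Ifit1 (chromosome 19, 34640871 to 34650009, plus strand) encodes a protein that binds viral RNA lacking the cap marks of the host. It held 33.9, 22.1, 23.1 and 14.3 CPM in fasted and 9.86, 13.4, 6.18, 11.3 and 6.72 CPM in re-fed liver with control ASO. With PLIN5 ASO Ifit1 held 24.8, 29.5, 18.7, 33.0 and 19.8 CPM in fasted and 16, 14.1, 16.4, 17 and 10.9 CPM in re-fed liver. The groups did not overlap under either ASO. The fall was 2.47-fold with control ASO (log2 fold change -1.30, SE 0.24, adjusted p = 0.00179) and 1.70-fold with PLIN5 ASO (-0.76, SE 0.23, adjusted p = 0.0431). The second call was lost in 10 of 21 other settings, 8 of them without 1 library, which was fasted PLIN5 ASO 1, 2 or 4 or any re-fed PLIN5 ASO library (adjusted p 0.00799 to 0.104 over all 21). Rsad2 (chromosome 12, 26442746 to 26456452, minus strand) encodes viperin, an enzyme of the endoplasmic reticulum and lipid droplets that makes a chain-ending nucleotide. It held 18.6, 12, 14.5 and 10.9 CPM in fasted and 7.6, 8.85, 9.51, 6.55 and 9.29 CPM in re-fed control ASO liver. With PLIN5 ASO Rsad2 held 15.3, 17.1, 17.1, 18.7 and 17.6 CPM in fasted and 12.1, 8.56, 9.81, 11.3 and 8.18 CPM in re-fed liver. Again no re-fed library reached a fasted one of its ASO, and the fall was 1.68-fold (-0.75, SE 0.15, adjusted p = 0.00321) and 1.72-fold (-0.78, SE 0.14, adjusted p = 0.00174).

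Of the effectors, 4 fell with control ASO without passing under PLIN5 ASO. Isg15 encodes a ubiquitin-like protein that is joined to other proteins during infection, and Usp18 the protease that removes it and also restrains the type I receptor. Isg15 (chromosome 4, 156199424 to 156200818, minus strand) held 16.3, 11.9, 10.8 and 9.28 CPM in fasted and 6.63, 9.63, 5.84, 8.93 and 4.52 CPM in re-fed control ASO liver. With PLIN5 ASO Isg15 held 14.2, 13.7, 12.8, 14.6 and 9.32 CPM in fasted and 10.4, 8.26, 10.3, 12.1 and 9.26 CPM in re-fed liver. The control groups overlapped in 1 library of each, and the fall was 1.70-fold (-0.76, SE 0.20, adjusted p = 0.0157), against -0.36 with PLIN5 ASO (SE 0.19, adjusted p = 0.250). The call was lost in 3 of 21 other settings (adjusted p up to 0.0770): without fasted control ASO 1, without the clock-shifted libraries and in a fit of only the groups compared. Usp18 held 23.2, 16.2, 17.9 and 11.5 CPM in fasted and 7.14, 11.7, 6.98, 11.0 and 6.82 CPM in re-fed control ASO liver. With PLIN5 ASO Usp18 held 19, 15.9, 16.7, 18.5 and 17.2 CPM in fasted and 15.3, 11.2, 17.7, 10.3 and 9.81 CPM in re-fed liver. It fell 1.97-fold with control ASO (-0.98, SE 0.21, adjusted p = 0.00432) and did not pass with PLIN5 ASO (-0.44, SE 0.20, adjusted p = 0.175). The call was missed without the clock-shifted libraries (adjusted p = 0.0512), in 1 of 21 other settings. Xaf1 encodes a partner of the apoptosis inhibitor XIAP. It held 9.66, 8.09, 6.39 and 6.62 CPM in fasted and 4.70, 7.78, 3.24, 5.10 and 4.97 CPM in re-fed control ASO liver. With PLIN5 ASO Xaf1 held 7.79, 8.79, 8.12, 7.55 and 7.43 CPM in fasted and 7.10, 6.61, 8.76, 6.56 and 6.53 CPM in re-fed liver. Its fall with control ASO (-0.58, SE 0.18, adjusted p = 0.0396) was lost in 10 of 21 other settings (adjusted p up to 0.201). Among them were those without fasted control ASO 1 or 3, without re-fed control ASO 1, 3, 4 or 5 and without the clock-shifted libraries. The call was also lost with fasted control ASO 3 and 4 as 1 sample. With PLIN5 ASO Xaf1 stood at -0.16 (SE 0.17, adjusted p = 0.611). Rtp4, a gene of a receptor-transporting protein, held 32.2, 20.3, 17.7 and 15.6 CPM in fasted and 13.4, 16.4, 10.8, 15.9 and 13.1 CPM in re-fed control ASO liver. With PLIN5 ASO Rtp4 held 23, 20.6, 20.8, 21.1 and 19.4 CPM in fasted and 15.8, 13.8, 20.9, 16.9 and 16.9 CPM in re-fed liver. It fell 1.54-fold with control ASO (-0.63, SE 0.17, adjusted p = 0.0182), against -0.31 with PLIN5 ASO (SE 0.16, adjusted p = 0.239). That call was lost in 5 of 21 other settings (adjusted p up to 0.127), among them those without fasted control ASO 1, without re-fed control ASO 3 and without the clock-shifted libraries. These 4 genes are not shown to respond differently under the 2 ASOs: the difference between the log2 fold changes was 0.40 for Isg15, 0.54 for Usp18, 0.42 for Xaf1 and 0.31 for Rtp4, with adjusted p of 0.379 to 0.534. The other 11 effectors did not pass in either comparison. Bst2, at 116 to 211 CPM, had the highest log2 fold change of the 40 with PLIN5 ASO, 0.34 (SE 0.12, adjusted p = 0.0791).

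**Figure D3:**
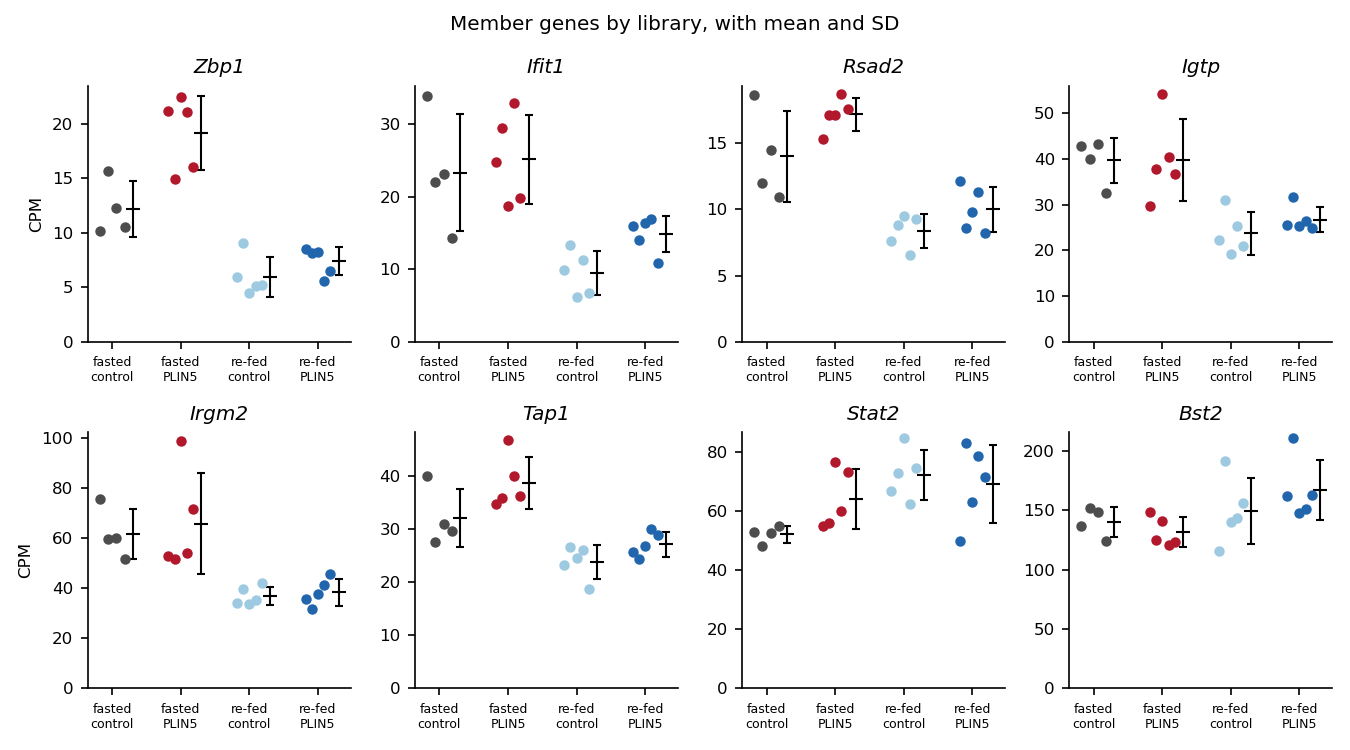
CPM of 8 genes in each library (points, in order of library number) by group, with the mean and SD (n = 4 for fasted control ASO and 5 for the others); axes start at 0. For Zbp1, Ifit1, Rsad2, Irgm2 and Tap1 the re-fed points lie below the fasted points of the same ASO, Stat2 is higher in re-fed than in fasted control ASO liver, and Bst2 overlaps throughout.

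Of the 9 interferon-inducible GTPases, which coat and break the vacuoles of intracellular parasites and bacteria, 2 fell with control ASO and 4 with PLIN5 ASO, and all 9 were below 0 with PLIN5 ASO (median log2 fold change -0.58). Igtp (Irgm3; chromosome 11, 58199556 to 58207591, plus strand), which also sits on lipid droplets, held 42.9, 39.9, 43.3 and 32.6 CPM in fasted and 22.3, 31.1, 19.2, 25.3 and 20.9 CPM in re-fed liver with control ASO. With PLIN5 ASO Igtp held 29.7, 37.9, 54.2, 40.4 and 36.8 CPM in fasted and 25.5, 31.6, 25.4, 26.4 and 24.8 CPM in re-fed liver, where re-fed PLIN5 ASO 2 lay above the lowest fasted library. The fall was 1.67-fold (-0.74, SE 0.15, adjusted p = 0.00324) and 1.49-fold (-0.58, SE 0.14, adjusted p = 0.0163). Irgm2 (58199618 to 58222782, plus strand), a regulator of the other GTPases, held 75.5, 59.5, 59.8 and 51.6 CPM in fasted and 34.1, 39.5, 33.6, 35.4 and 42.0 CPM in re-fed liver with control ASO. With PLIN5 ASO Irgm2 held 52.6, 51.5, 98.7, 53.9 and 71.4 CPM in fasted and 35.7, 31.5, 37.6, 41.3 and 45.6 CPM in re-fed liver, and the groups did not overlap under either ASO. The fall was 1.67-fold (-0.74, SE 0.17, adjusted p = 0.00643) and 1.71-fold (-0.77, SE 0.16, adjusted p = 0.00464). Without the clock-shifted libraries, which include the 2 highest fasted values of Irgm2, its fall with PLIN5 ASO was -0.46 (adjusted p = 0.0266; 7.78e-05 to 0.0266 over the 21 other settings). Both the falls of Irgm2 and that of Igtp with control ASO passed in every setting tried.

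Gbp6 and Iigp1 passed with PLIN5 ASO and not with control ASO. Gbp6, a guanylate-binding protein gene at a low level, held 3.11, 3.24, 2.61 and 1.59 CPM in fasted and 1.86, 2.07, 1.94, 1.17 and 2.74 CPM in re-fed control ASO liver, which overlapped (-0.44, SE 0.24, adjusted p = 0.237). With PLIN5 ASO Gbp6 held 3.43, 4.00, 5.55, 4.99 and 4.57 CPM in fasted and 2.47, 1.56, 1.95, 2.91 and 2.2 CPM in re-fed liver, with no overlap. It fell 2.03-fold there (-1.02, SE 0.22, adjusted p = 0.00738). Reads of Gbp6 may be shared with its near-identical neighbour Gbp10, since it is not given how reads matching both were counted. Gbp10 fell under both ASOs (-1.08 and -0.95, SE 0.19 and 0.18, adjusted p = 0.00134 and 0.00282). The annotated exons of Gbp6 also share 1726 bases (29% of its own) on the same strand with Gm43302, a gene not in the count table. Iigp1 (chromosome 18, 60376027 to 60392634, plus strand) held 425, 371, 379 and 427 CPM in fasted and 371, 338, 289, 318 and 327 CPM in re-fed control ASO liver. With PLIN5 ASO Iigp1 held 406, 382, 433, 397 and 390 CPM in fasted and 307, 252, 357, 360 and 302 CPM in re-fed liver. The change was 1.27-fold lower with PLIN5 ASO (-0.35, SE 0.09, adjusted p = 0.0216) and 1.22-fold lower with control ASO, where the test was missed (-0.29, SE 0.10, adjusted p = 0.0547). The PLIN5 ASO call was lost in 3 of 21 other settings: without fasted PLIN5 ASO 3 (adjusted p = 0.0505), in a fit of only the groups compared (0.0563) and without the clock-shifted libraries (0.0685). With control ASO Iigp1 passed by DESeq2, without re-fed control ASO 1 and with the length trend taken out. Gbp2, Gbp3, Gbp7, Irgm1 and Ifi47 did not pass in either. Of these, Ifi47 moved least with control ASO (0.01, SE 0.22) and stood at -0.61 with PLIN5 ASO (SE 0.20, adjusted p = 0.0680). Its fasted PLIN5 ASO values, 15.1, 12.1, 30.6, 13.9 and 17.7 CPM, hold 1 library, number 3, well above the rest.

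Of the 3 antigen processing genes Tap1 fell under both ASOs. Tap1 (chromosome 17, 34187553 to 34197225, plus strand) encodes a subunit of the transporter that carries peptides to MHC class I. It held 40, 27.6, 31.0 and 29.7 CPM in fasted and 23.2, 26.7, 24.6, 26.0 and 18.7 CPM in re-fed control ASO liver. With PLIN5 ASO Tap1 held 34.7, 35.9, 46.8, 40.1 and 36.2 CPM in fasted and 25.7, 24.3, 26.8, 30.1 and 28.9 CPM in re-fed liver. No re-fed library reached a fasted one, and the fall was 1.35-fold (-0.43, SE 0.12, adjusted p = 0.0221) and 1.43-fold (-0.51, SE 0.11, adjusted p = 0.00750). With control ASO the call was lost in 5 of 21 other settings, among them those without fasted control ASO 1, without re-fed control ASO 5 and without the clock-shifted libraries (adjusted p 0.00752 to 0.101 over all 21). Tap1 lies head to head with Psmb9, whose exons overlap its own by 212 bases on the other strand, and the strand setting of the counting is not given. The immunoproteasome genes Psmb8 and Psmb9, which cut the peptides, did not pass. Psmb8 held 29.0, 31.3, 33.4 and 24.9 CPM in fasted and 24.0, 35.6, 26.6, 29.9 and 22.1 CPM in re-fed control ASO liver. With PLIN5 ASO Psmb8 held 34.4, 30.7, 39.7, 38.3 and 32.8 CPM in fasted and 27.9, 34.2, 33.1, 30.7 and 28.3 CPM in re-fed liver. The groups overlapped in both (log2 fold changes -0.10 and -0.19, SE 0.12 and 0.12).

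The 2 chemokine genes, whose products draw T cells through the receptor Cxcr3, did not pass in either comparison. Cxcl10 held 3.97, 3.45, 3.63 and 3.22 CPM in fasted and 2.72, 2.51, 1.84, 2.82 and 1.51 CPM in re-fed control ASO liver, with no overlap (-0.65, SE 0.27, adjusted p = 0.113). With PLIN5 ASO Cxcl10 held 1.83, 1.76, 3.47, 2.46 and 2.58 CPM in fasted and 1.86, 1.26, 2.03, 2.15 and 0.742 CPM in re-fed liver (-0.61, SE 0.26, adjusted p = 0.161). Cxcl9 held 8.40, 11.6, 10.4 and 9.17 CPM in fasted and 11.5, 12, 4.14, 10.2 and 7.95 CPM in re-fed control ASO liver. With PLIN5 ASO Cxcl9 held 6.76, 5.44, 14.8, 12.7 and 8.83 CPM in fasted and 9.87, 10.3, 8.43, 7.94 and 7.99 CPM in re-fed liver. Its log2 fold changes were -0.11 and -0.13, with 95% confidence intervals of -0.68 to 0.46 and -0.66 to 0.41.

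Of the 13 genes that fell under at least 1 ASO, 8 had a promoter window, and 5 of these 8 held an ISRE core (Ifit1, Isg15, Rsad2, Igtp and Irgm2) and 2 a GAS core (Igtp and Irgm2). Of the 27 that fell under neither, 25 had a window, with an ISRE core in 13 and a GAS core in 8. Stat2 has the same ISRE core in its printed stretch as Ifit1, TTTCAGTTTC, while its level moved the other way with control ASO.

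The number of changed genes with control ASO rested in part on single libraries. It was 6 (Zbp1, Ifit1, Usp18, Rsad2, Igtp and Irgm2, all falls) without fasted control ASO 1, the library in which 23 of the 40 genes were highest of its group. Without the clock-shifted libraries it was 5 (Zbp1, Ifit1, Rsad2, Igtp and Irgm2). Re-fed control ASO 3 and 5, among those left out, were the lowest of their group in 17 and 13 of the 40 genes. With fasted control ASO 3 and 4 as 1 sample, the control ASO calls of Stat2 and Xaf1 were lost and the others stayed. With PLIN5 ASO 7 genes fell without the clock-shifted libraries, and 7 to 9 were called when 1 library was left out. Calls over all genes moved as well when 1 library was left out. They ran from 1112 to 1835 with control ASO, against 1759, and from 741 to 1170 with PLIN5 ASO, against 1148. Whether the 40 lost calls more often than other genes was not tested. Transcript length moved with the control ASO comparison: across 12807 genes, not independent of each other, Spearman's rho between log2 fold change and length was 0.22, and -0.06 with PLIN5 ASO. For PLIN5 ASO against control ASO it was 0.04 in fasted and -0.32 in re-fed liver, and for the interaction of ASO and feeding -0.27. The median length was 3005 bases for the 40 and 3318 bases for all. With that trend taken out 12 of the 40 fell with control ASO and 8 with PLIN5 ASO, and none rose.

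A difference between the ASOs in the response to food was not shown for any of the 40. The interaction of ASO and feeding passed in 0 of 40 by edgeR, against 0.0226% of all genes (0.0150% above 0 and 0.00752% below). By DESeq2 it passed in 0 of 40, against 93 of all genes. At an unadjusted p under 0.05 by edgeR 1 of 40 stood out, against 15.0% of all genes. That gene was Parp14, which encodes an ADP-ribosyltransferase: -0.41 (SE 0.19, adjusted p = 0.313). With the trend over transcript length taken out it stood at -0.24 (edgeR adjusted p = 0.594). The intervals are wide. The median SE of an interaction was 0.24, and the 95% confidence interval stayed within a 2-fold difference for 32 of the 40. For Ifit1, whose fall was smaller with PLIN5 ASO, the difference was 0.54 with an interval of -0.16 to 1.24.

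PLIN5 ASO against control ASO in fasted liver asks whether the oligonucleotide against Plin5 moved these genes at all. None of the 40 passed by edgeR, against 1.17% of all genes (0.602% that rose and 0.572% that fell), and 11 had an unadjusted p under 0.05, against 15.1% of all genes. DESeq2 called 3 of the 40, Zbp1, Oasl2 and Gbp6, and 431 of all genes. The median log2 fold change was 0.16, against 0.01 for all genes, with 34 of 40 above 0. It was 0.06 without fasted control ASO 5 and 0.25 without fasted control ASO 1. In Stat2, Oasl2, Ifi44 and Gbp6 all 5 PLIN5 ASO libraries lay above all 4 controls, as did 2.87% of all genes, and in none did all lie below, against 4.26%. These fasted libraries also enter the re-feeding comparisons, so the values of the 2 kinds of comparison are not independent. Oasl2, of the oligoadenylate synthetase family, held 7.06, 6.87, 10.6, 8.64 and 8.55 CPM under PLIN5 ASO, against 6.48, 4.92, 5.25 and 3.89 CPM in controls (log2 fold change 0.70, SE 0.20, edgeR adjusted p = 0.0941, DESeq2 adjusted p = 0.0249, and 0.0249 to 0.243 over all settings). Ifi44 held 6.16, 6.02, 5.29, 7.48 and 4.89 CPM under PLIN5 ASO, against 4.09, 3.24, 4.32 and 1.77 CPM, the highest log2 fold change of the 40 (0.82, SE 0.30, adjusted p = 0.184). Zbp1, at 0.65 (SE 0.19, adjusted p = 0.104), and Gbp6, at 0.77 (SE 0.24, adjusted p = 0.117), had values printed above that place PLIN5 ASO higher, with 1 control library inside the range for Zbp1. Irf1, a transcription factor of the interferon gamma response, and Cxcl10 stood below 0 (-0.41 and -0.56, SE 0.14 and 0.27, adjusted p = 0.158 and 0.328). The 95% confidence interval stayed within a 2-fold change for 32 of the 40, and over all 40 the bounds reached -1.12 and 1.45.

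In re-fed liver too, none of the 40 passed by edgeR for PLIN5 ASO against control ASO. Of all genes 1.38% did (0.812% that rose and 0.564% that fell). DESeq2 also called 0 of the 40, against 612 of all genes. Of the 40, 8 had an unadjusted p under 0.05 by edgeR, against 19% of all genes. The median was 0.16, against -0.01 for all genes, with 30 of 40 above 0, and in none did the groups stand apart, against 2.48% of all genes higher and 1.74% lower. The values of Ifit1 and Usp18 printed above gave log2 fold changes of 0.64 (SE 0.23, adjusted p = 0.148) and 0.56 (SE 0.20, adjusted p = 0.144). Ifi35, which encodes an interferon-induced leucine zipper protein, had the smallest p: 37.8, 39.6, 37.8, 32.0 and 31.1 CPM under PLIN5 ASO, 24.8, 37.0, 24.7, 30.9 and 26.0 CPM in controls (0.31, SE 0.11, adjusted p = 0.128). Log2 fold change in this comparison fell with transcript length (Spearman's rho -0.32). With that trend taken out Ifi35 stood at 0.24 (edgeR adjusted p = 0.288), Ifit1 at 0.63 and Usp18 at 0.52. Re-fed control ASO 2 held the highest value of its group in 20 of the 40 genes. Without it the median was 0.26 and 3 genes passed as higher with PLIN5 ASO, Irf7, Ifi35 and Xaf1. Over all genes, calls in this comparison ran from 45 to 341 with 1 library left out, against 183. Irf7 held 42.8, 76.5, 41.0, 55.5 and 35.9 CPM in the re-fed controls and 71.8, 65.3, 71.0, 58.6 and 63.5 CPM with PLIN5 ASO (0.39, SE 0.16, adjusted p = 0.204). Its lowest 2 control values were those of the clock-shifted libraries. Without these libraries none of the 40 passed and the median was 0.06. The 95% confidence interval stayed within a 2-fold change for 36 of the 40.

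**Figure D4:**
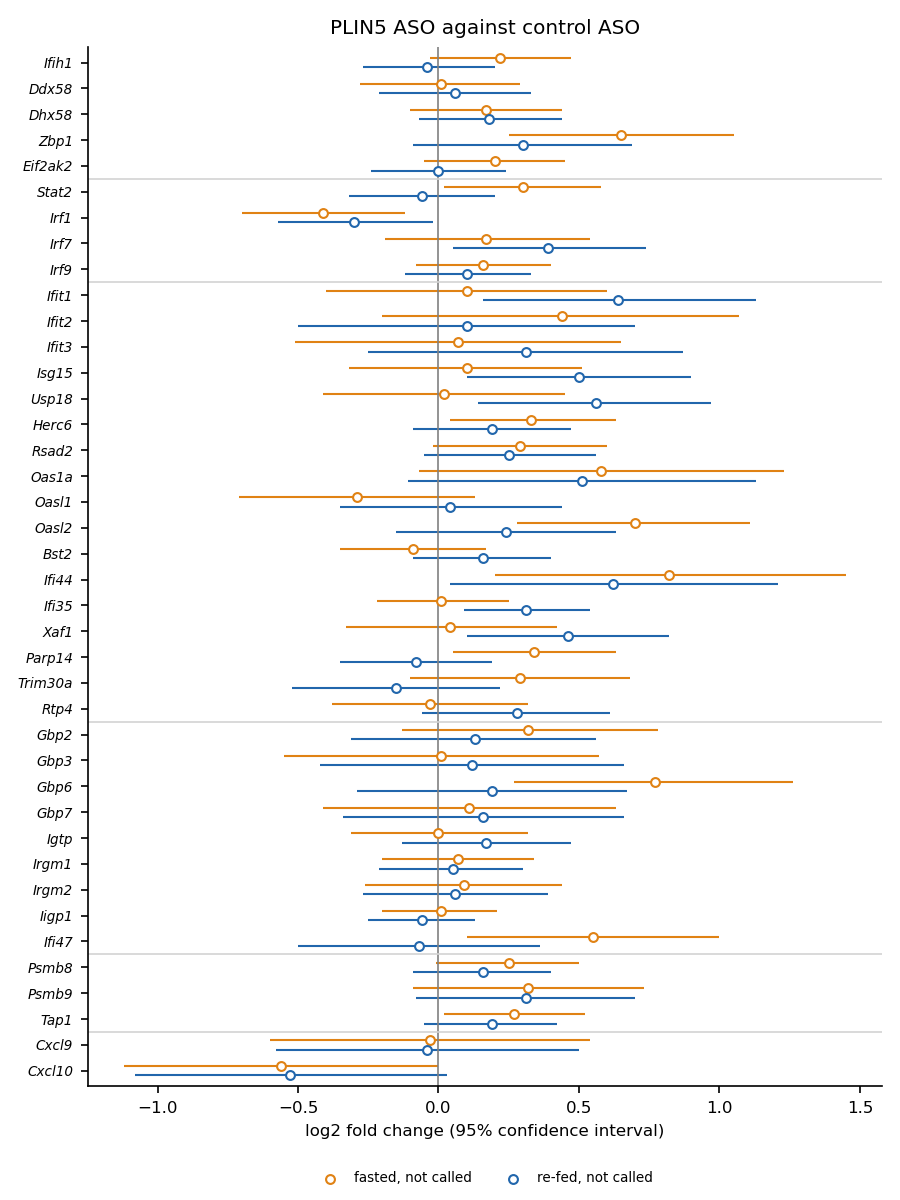
Points are log2 fold changes of PLIN5 ASO against control ASO for the 40 genes in fasted (orange) and re-fed liver (blue), with 95% confidence intervals; open points did not reach an adjusted p under 0.05, which holds for all of them. Most points lie to the right of 0 and most intervals cross it, with Irf1 and Cxcl10 to the left in both.

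The interferons themselves were close to absent from the libraries. Of 21 interferon genes in the count table (the alpha family, beta, epsilon, kappa, zeta, gamma and lambda), 17 had 0 reads in all 19 libraries, the highest count of any in a library was 2 reads, and all together gave 16 reads. None passed the filter, so no comparison was made, and at this depth no level could be set. A count of 0 does not show that no cell of the liver made interferon.

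The receptor chain genes Ifnar2 and Ifngr2 fell with re-feeding under both ASOs, while Ifnar1 did not pass under either. Of 14 tested genes of the receptor and JAK-STAT list, 3 fell (21.4%) and 1 rose (7.14%) with control ASO, against 6.82% and 6.42% of all genes. With PLIN5 ASO 3 fell (21.4%) and 0 rose, against 4.14% and 4.50%. Ifnar2, a chain of the type I receptor, held 111, 99.0, 97.4 and 110 CPM in fasted and 70.8, 66.9, 70.6, 75.3 and 74.1 CPM in re-fed control ASO liver. With PLIN5 ASO Ifnar2 held 99.9, 100, 113, 106 and 118 CPM in fasted and 86.7, 83.0, 84.0, 84.2 and 83.5 CPM in re-fed liver. The groups stood well apart in both (-0.55, SE 0.06, adjusted p = 3.86e-05, and -0.35, SE 0.06, adjusted p = 0.00119). Ifngr2, a chain of the interferon gamma receptor, fell by 0.79 (SE 0.12, adjusted p = 3.88e-04) and by 0.62 (SE 0.11, adjusted p = 0.00201) on the log2 scale. Its partner Ifngr1 fell by 0.30 with PLIN5 ASO (SE 0.09, adjusted p = 0.0389), and with control ASO its means were 12.4 CPM ± 0.715 fasted (SD, n = 4) and 12.7 CPM ± 1.43 re-fed (SD, n = 5). With control ASO Socs1, a feedback inhibitor of the pathway at under 1 CPM, fell (-1.29, SE 0.41, adjusted p = 0.0414) and the kinase gene Jak1 rose (0.24, SE 0.07, adjusted p = 0.0277). Of 15 genes that act upstream of interferon, 1 fell and 1 rose under each ASO (6.67% each), shares near those of all genes. The adaptor gene Myd88 fell (-0.44, SE 0.11, adjusted p = 0.00967) and Traf3 rose (0.63, SE 0.19, adjusted p = 0.0383) with control ASO. With PLIN5 ASO Irf2, a repressor of interferon genes, rose (0.62, SE 0.11, adjusted p = 0.00182) and Trim25, a ligase that activates RIG-I, fell (-0.36, SE 0.08, adjusted p = 0.00871). Neither list held a call in the ASO comparisons.

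Among 68 tested interferon-induced genes outside the 40, 5 fell (7.35%) and 1 rose (1.47%) with re-feeding under control ASO. Of all genes 6.82% fell and 6.42% rose. In either direction the shares were 8.82% of the list and 13.2% of all genes. Under PLIN5 ASO 6 fell (8.82%) and 2 rose (2.94%), against 4.14% and 4.50% of all genes. In either direction the shares were 11.8% and 8.64%. Gbp10 and Lgals3bp, which encodes a secreted galectin-binding protein, fell in both (Lgals3bp -0.38 and -0.40, SE 0.11 and 0.10, adjusted p = 0.0251 and 0.0201). With control ASO the apolipoprotein L genes Apol9a and Apol9b, near-identical copies of each other, and the RNA helicase gene Mov10 fell as well (-0.60, -0.60 and -0.36), and Pnpt1 rose (0.34, SE 0.09, adjusted p = 0.0161). With PLIN5 ASO Oas1g and Tgtp1 fell (-1.24 and -1.44, SE 0.27 and 0.40, adjusted p = 0.00738 and 0.0312), while the chemokine gene Cxcl11 (0.86, SE 0.21, adjusted p = 0.0146) and Ifitm3, which blocks the entry of viruses (0.39, SE 0.10, adjusted p = 0.0185), rose. This broader list did hold calls for PLIN5 ASO against control ASO, 3 of 68 in each feeding state (4.41%), all of them rises, against 0.602% of all genes that rose in fasted and 0.812% in re-fed liver. In fasted liver these were Oas1g (1.43, SE 0.29, adjusted p = 0.0258), Ifi27l2a (0.84, SE 0.18, adjusted p = 0.0268) and Il18bp, which encodes a binding protein of interleukin 18 (0.77, SE 0.18, adjusted p = 0.0345). Oas1g held 1.63, 1.40, 1.46, 1.65 and 1.19 CPM under PLIN5 ASO, all above the 0.714, 0.458, 0.630 and 0.354 CPM of the controls. It is a near-identical copy of Oas1a, which did not pass (0.58, SE 0.31, adjusted p = 0.398). In re-fed liver the rises were those of Ifi27l2a (0.70, SE 0.17, adjusted p = 0.0435), B2m, the light chain of MHC class I (0.32, SE 0.08, adjusted p = 0.0411), and Mov10 (0.36, SE 0.09, adjusted p = 0.0475). How calls outside the 40 held in the other settings is not given here. Over all genes, ASO calls ran from 22 to 431 in fasted and from 4 to 612 in re-fed liver across those settings, against 156 and 183. Of 11 MHC genes tested, H2-T23 fell with re-feeding under control ASO (-0.42, SE 0.10, adjusted p = 0.00694). That is 9.09%, against 6.82% of all genes that fell. No other passed in any of the 4 comparisons. With re-feeding 7 of 11 were below 0 under control ASO and all 11 under PLIN5 ASO (median log2 fold changes -0.16 and -0.42). Under PLIN5 ASO 6 had an unadjusted p under 0.05 by edgeR, against 23.5% of all genes. For PLIN5 ASO against control ASO 9 of 11 were above 0 in fasted and 6 of 11 in re-fed liver.

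Per library, the mean deviation of the 40 genes on the log2 scale ran from -0.46 in re-fed control ASO 3 and -0.43 in re-fed control ASO 5, both clock-shifted, to 0.35 in fasted PLIN5 ASO 4 and 0.40 in the clock-shifted fasted PLIN5 ASO 3. Among the fasted controls it was 0.27 in library 1 and -0.22 in library 5, in which 31 of the 40 genes were lowest of the group. Fasted PLIN5 ASO 3 also had the highest deviation of the 12 Kupffer cell and macrophage markers (1.21) and of the MHC genes (0.91), and in it 7 of the 9 GTPases were highest of the group. The summed level of the 12 macrophage markers was 151 to 181 CPM in fasted control ASO, 172 to 448 CPM in fasted PLIN5 ASO, 147 to 232 CPM in re-fed control ASO and 131 to 264 CPM in re-fed PLIN5 ASO. All 12 passed the filter. None was called with re-feeding. Their median log2 fold change was 0.39 with control ASO, where all 12 were above 0 and 30 of the 40 interferon response genes below, and -0.38 with PLIN5 ASO, where 11 of 12 were below 0. In fasted liver C1qa and C1qb rose with PLIN5 ASO (0.89 and 1.03, SE 0.21 and 0.24, adjusted p = 0.0424 and 0.0345), 16.7% of the 12. Of 9 stellate cell and fibroblast markers Col1a2, Col3a1 and Lum rose (33.3%), against 0.602% of all genes. There all 12 macrophage markers (median log2 fold change 0.70) and all 9 stellate cell and fibroblast markers (0.49) were above 0. So were 34 of the 40 interferon response genes. In re-fed liver 4 of the 12, 6 of the 9 and 30 of the 40 were above 0. The part of these cells in the values of the 40 genes was not tested. Summed lymphocyte markers stayed between 4.75 and 12.9 CPM and neutrophil and monocyte markers between 1.53 and 5.49 CPM. Of these 2 lists Cd4 alone was called, as a rise with re-feeding under control ASO (1.57, SE 0.39, adjusted p = 0.0109), with its highest values, 10.1 and 8.40 CPM, in the clock-shifted libraries.

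The acute phase gene Saa1, which hepatocytes make in inflammation, also differed within a group. It was at 4170, 4860 and 2174 CPM in fasted PLIN5 ASO 1, 3 and 5 and at 40.6 and 121 CPM in 2 and 4. The mean deviation of the 40 genes was 0.17, 0.40 and 0.16 in the first 3 and 0.17 and 0.35 in the other 2.

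**Figure D5:**
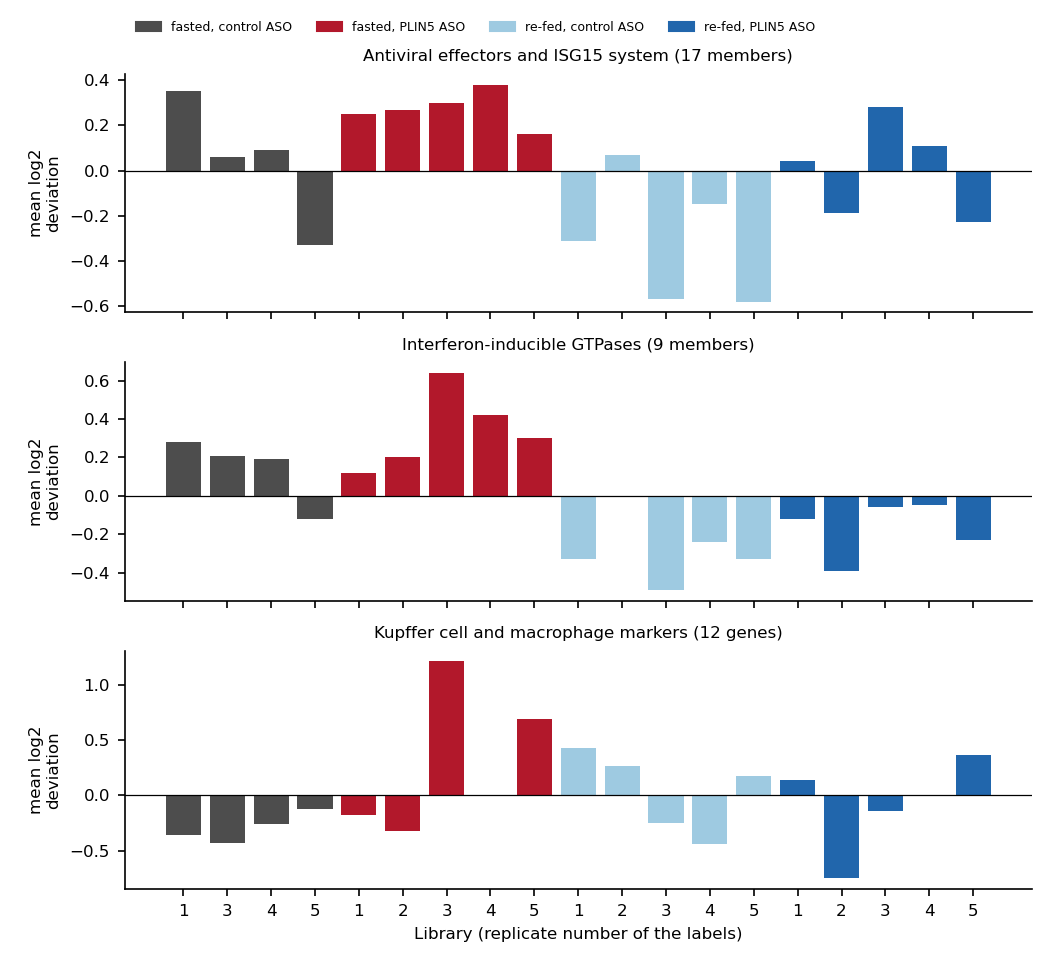
Bars show, for each library, the mean over a gene list of log2 CPM minus the gene's mean over all 19 libraries, for 17 antiviral effectors, 9 GTPases and 12 macrophage markers; colours mark the 4 groups, and each panel has its own scale. All 5 fasted PLIN5 ASO bars are above 0 in the upper panels, re-fed control ASO 3 and 5 are the lowest for the effectors, and the macrophage markers peak in fasted PLIN5 ASO 3.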

How the data were processed

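Liver total RNA of 19 libraries was extracted with the RNeasy kit and prepared by standard Illumina protocols, per the labels. Of software, the submitters' processing notes list Subread, edgeR, Cuffdiff 2.2.1, HISAT2 2.0.2 and FastQC, with mm10 and GRCm38 as builds and no roles. Not given in the sources used here are the strand setting, the annotation and how reads matching several genes were treated. Read counts were deposited by the authors as 1 whole-number value per gene symbol and library. The authors also deposited FPKM per gene symbol; their further scaling is not given, and they served to compare levels between genes and in alternatives.

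From the counts, CPM were computed on TMM-scaled libraries in R 4.3.3, with edgeR 4.0.16. Genes passing filterByExpr (minimum count 10) were fitted with 1 mean per group over all 19 libraries. The quasi-likelihood F test, two-sided, was adjusted by Benjamini-Hochberg over 13293 genes, with a threshold of 0.05. Deeper libraries have less counting error: 24.9 to 66.9 in units of 1e6 counts. Simulated counts with known changes were used to test that fit. The 40 genes, the other lists and the tests were chosen with earlier results of these data known. Values in every library are given for each of the 40 that was called and for the 2 of each role with the smallest p. Genes of the other interferon lists and of the MHC list are named where called (up to 6 of a list and comparison). Not every called marker of a cell type or of the clock is named. Alternatives were RLE size factors, other filters, DESeq2 1.42.0, fewer groups in the fit, the replicate number as a factor, each library left out, and limma 3.58.1 on log2 FPKM. Added after seeing the data were fits without the clock-shifted libraries, with fasted control ASO 3 and 4 as 1 sample, and with each library's trend over transcript length removed in 25 bins. Gene positions and lengths are from the GENCODE annotation of GRCm38, promoters from RefSeq (GRCm38.p6).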

Additional observations from a re-analysis of the deposited data

Results flagged for a closer look

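In 7 of 160 combinations of a gene and a group, 1 library lay far from the others of its group by Dixon's criterion, which chance alone meets in about 1 in 20. Fasted control ASO 5 was low for Ifih1 (25.7 CPM, against 32.7 to 33.5 CPM in the other 3) and for Irf7 (48.2 CPM, against 69.1 to 70.8 CPM). Fasted control ASO 4 was high for Ifit2 (3.12 CPM, against 2.09 to 2.17 CPM). Fasted PLIN5 ASO 4 was high for Gbp3 (12.5 CPM, against 7.26 to 8.40 CPM). Re-fed PLIN5 ASO 2 was high for Bst2 (211 CPM, against 148 to 163 CPM) and for Igtp (31.6 CPM, against 24.8 to 26.4 CPM). Re-fed PLIN5 ASO 3 was high for Xaf1 (8.76 CPM, against 6.53 to 7.10 CPM). Of these genes Igtp and Xaf1 carried calls, Igtp with re-feeding under both ASOs and Xaf1 under control ASO, whose libraries do not include the one set apart for Xaf1.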

How the results depend on the processing

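The number of the 40 genes called in fasted liver for PLIN5 ASO against control ASO was 3 by DESeq2 and 0 in all 20 other settings. In re-fed liver it was 0 to 3 with 1 library left out. With re-feeding under control ASO, where 11 were called, it was 7 in a fit of only the groups compared, 5 without the 4 clock-shifted libraries and 6 to 12 with 1 library left out. Under PLIN5 ASO it was 7 to 9 with 1 library left out. There DESeq2 called Parp14, Gbp2 and Ifi47 as falls in addition to those of the main fit. By limma on log2(FPKM + 1) without a filter, only Zbp1, Rsad2, Gbp6, Irgm2, Iigp1 and Tap1 were called. The falls of Zbp1, Ifit1, Rsad2, Igtp and Irgm2 under control ASO and of Zbp1, Rsad2, Gbp6, Irgm2 and Tap1 under PLIN5 ASO passed in all 21 settings. No log2 fold change of the 40 that was called changed sign in any setting. Values near 0 could do so, as that of Eif2ak2 with re-feeding under control ASO did (0.07, and -0.03 with the length trend taken out). Medians of the 40 ran from -0.27 to -0.12 and from -0.36 to -0.19 with re-feeding, and from 0.06 to 0.25 and 0.06 to 0.26 for the ASO. Over all genes, calls ran from 22 to 431, 4 to 612, 1112 to 2250 and 741 to 1506 (fasted ASO, re-fed ASO, re-feeding under control and under PLIN5 ASO), against 156, 183, 1759 and 1148. The highest number of each was that of DESeq2. Replicate numbers did not pair the libraries (18 same-numbered pairs, correlations of deviations -0.21 to 0.17, 4 over 0.1); with the replicate block 0, 1 (Ifit1, higher), 12, 8 and 0 (interaction) of the 40 were called. The causes of these differences were not tested.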
